A study of Mus musculus with 11 samples.

Results

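Broad H3K4me3 domains of NICD stomach glands were taken as stretches of H3K4me3 peaks at least 4000 bp wide. Peaks of the NICD H3K4me3 library on chromosomes 1 to 19 and X that lay at most 500 bp apart were joined, which gave 32582 regions with a median width of 718 bp. Only 2 of them, 0.00614%, reached 4000 bp. One lay over the start of Nr3c2, which encodes the mineralocorticoid receptor, a hormone-activated transcription factor. The other lay over the start of Spry2, which encodes Sprouty2, a feedback inhibitor of signalling from receptor tyrosine kinases to ERK. Both were under H3K4me3 peaks to a much smaller extent in wild-type glands and under none in Arid1a-floxed glands, as was common among wide NICD regions, and each lay partly under H3K27ac peaks in 7 or 8 of the 8 H3K27ac libraries. Their share under H3K27ac peaks was lower by the test in glands with 1 floxed Arid1a allele than in NICD glands, as in most other regions. The Nr3c2 call was lost in most other settings, and both differences changed sign with the H3K27ac lists shortened to one length. Because the domains were chosen by their H3K4me3 width in NICD glands, those widths are a description without a test.

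The series profiled epithelium from mouse stomach glands by chromatin immunoprecipitation and sequencing (ChIP-seq). The 2-allele glands were Atp4bCre; Rosa26NICD; Arid1aflox/flox, the 1-allele glands Atp4bCre; Rosa26NICD; Arid1aflox/+, and the NICD glands Atp4bCre; Rosa26NICD, and the remaining glands were wild type. All glands except the wild type carried both Cre and NICD. Cre was driven by the promoter of Atp4b, a proton pump gene of parietal cells, Rosa26NICD supplies the active intracellular part of Notch, and Arid1a encodes a subunit of the SWI/SNF chromatin remodelling complex. H3K27ac was profiled in 2 libraries of each group, and H3K4me3 in 1 Arid1a-floxed, 1 NICD and 1 wild-type library. The floxed H3K4me3 library has 1 floxed allele by its title and 2 by its genotype, so its dose is not used. The labels give no age, and fixed pellets were pooled before the immunoprecipitation, so libraries sharing a genotype may also share animals.

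H3K4me3 is deposited at the starts of active genes by SET1 and MLL methyltransferases, and most starts carry a narrow stretch of it on both sides of a nucleosome-depleted gap. Unusually wide stretches are known from genes that set cell identity and from regulators kept at a steady level of transcription. H3K27ac marks active promoters and enhancers and usually lies within the same stretch.

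The starts inside the domains were annotated by RefSeq in GRCm38.p6. The 300 bases around each start, from 250 before it to 50 from it on, are shown because the H3K4me3 peaks of the 2 domains lay differently on them: the windows of Spry2 and of Gm10649, a long noncoding RNA inside the Nr3c2 domain, lay wholly under an NICD H3K4me3 peak, while only 32 bases of the Nr3c2 window did. Capitals mark matches to the GC box GGGCGG, on either strand (CCGCCC), the core recognised by Sp and KLF factors.
Nr3c2, chr8:76902080-76902379, + strand: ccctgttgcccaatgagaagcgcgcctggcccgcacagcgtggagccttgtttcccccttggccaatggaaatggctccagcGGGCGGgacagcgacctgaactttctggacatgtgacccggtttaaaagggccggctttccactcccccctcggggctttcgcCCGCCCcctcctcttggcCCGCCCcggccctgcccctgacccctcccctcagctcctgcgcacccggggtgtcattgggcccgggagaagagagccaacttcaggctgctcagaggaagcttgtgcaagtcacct
Gm10649, chr8:76900572-76900871, − strand: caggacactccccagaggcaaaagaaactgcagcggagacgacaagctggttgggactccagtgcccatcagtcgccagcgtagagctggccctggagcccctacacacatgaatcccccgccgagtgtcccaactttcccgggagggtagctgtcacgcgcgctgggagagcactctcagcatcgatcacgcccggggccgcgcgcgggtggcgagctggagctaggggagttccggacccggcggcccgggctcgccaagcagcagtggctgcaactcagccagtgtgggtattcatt
Spry2, chr14:105896770-105897069, − strand: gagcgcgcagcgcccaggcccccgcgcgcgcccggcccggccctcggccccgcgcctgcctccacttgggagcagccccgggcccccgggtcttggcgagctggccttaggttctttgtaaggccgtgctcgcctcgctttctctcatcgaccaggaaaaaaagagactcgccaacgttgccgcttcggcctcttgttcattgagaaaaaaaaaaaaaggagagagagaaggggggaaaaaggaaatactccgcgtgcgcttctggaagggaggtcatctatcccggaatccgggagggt
All 3 windows were rich in CG: Spry2 held 28 CG dinucleotides, Gm10649 23 and Nr3c2 17, against a median of 7 over 32851 promoter windows of the same length. Their G and C content was 62.7% in Spry2, 65.3% in Gm10649 and 65.7% in Nr3c2, against a median of 52.7%. The Nr3c2 window held 3 GC boxes, with first bases 168, 85 and 67 bp before the start, and 3 matches to CCAAT, the box bound by NF-Y, on either strand 241, 188 and 12 bp before it. The Spry2 and Gm10649 windows held neither motif, which 35.7% (GC box) and 37.4% (CCAAT) of all windows hold. The motif TGGGAA, searched on both strands and the core bound by RBPJ, the DNA-binding partner of NICD, was in none of the 3 windows and in 25.6% of all windows. A match or its absence in these windows is a description of their letters.

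The Nr3c2 domain spanned chr8:76898859-76902946, 4088 bp, and most of it lay before the annotated start in the promoter table. That start, at position 76902330 on the + strand, had 3471 bp of the domain (84.9%) before it and 616 bp after it. The RefSeq gene runs from 76898083 to 77245012, 346930 bp, so it begins 776 bp to the left of the domain, the whole domain lies inside the annotated gene, and the start used here is not its outermost one. The domain was made up of 3 NICD H3K4me3 peaks. The widest, of 2235 bp, reached from 3471 to 1237 bp upstream and held the start of Gm10649, on the opposite strand and 1709 bp from that of Nr3c2. The next, of 400 bp, lay 769 to 370 bp upstream, and the third, of 599 bp, reached from 18 to 616 bp downstream. The start of Nr3c2 therefore fell in a gap of 387 bp between 2 peaks, and the other gap was 467 bp. Together the peaks covered 3234 bp, 79.1% of the domain.

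The Spry2 domain spanned chr14:105894886-105898904, 4019 bp, and was nearly centred on its gene. Spry2 starts at position 105896819 on the − strand, with 2085 bp of the domain (51.9%) upstream and 1933 bp downstream, and the whole gene is 4873 bp long. Its peaks, 3 in number, covered 3187 bp (79.3%), with gaps of 387 and 445 bp, both upstream of the start. The widest peak, of 2242 bp, held the start and reached from 308 bp upstream to 1933 bp downstream. Those of 487 and 458 bp lay 1182 to 696 and 2085 to 1628 bp upstream. No other gene start of the table lay in the domain or within 1 kb of it.

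**Figure D1:**
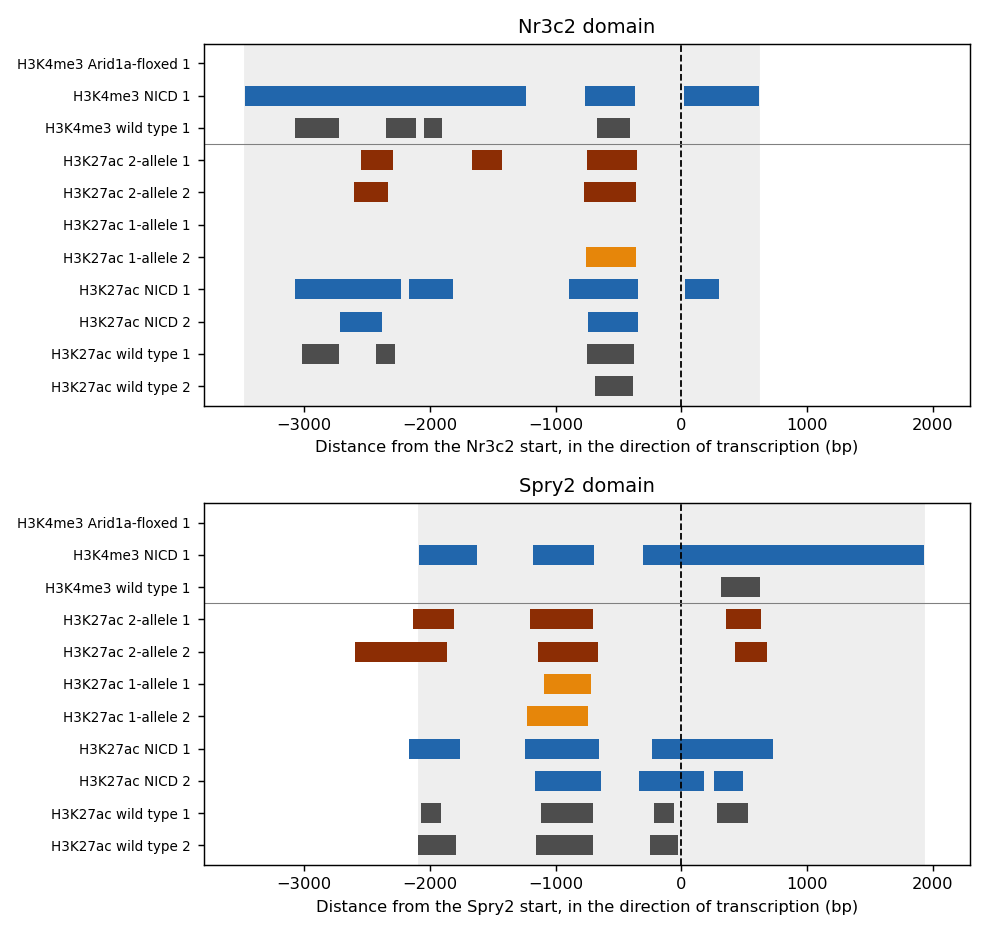
Peaks of the 11 libraries at the Nr3c2 (top) and Spry2 (bottom) domains, one row per library, against distance from the gene start in bp (dashed line at 0, upstream to the left); bars are peaks and the grey band is the domain. The 3 NICD H3K4me3 peaks span each band, the Arid1a-floxed H3K4me3 row is empty, and H3K27ac peaks stack about 700 to 400 bp upstream of Nr3c2 and about 1000 bp upstream of Spry2.

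Width set these domains apart by a small margin. The Nr3c2 domain was 88 bp and the Spry2 domain 19 bp wider than the threshold. The 3 widest regions below it were 3919 bp over Klf4, a transcription factor of gastric and other epithelia, 3909 bp inside the body of Tchh, a hair follicle protein, and a single peak of 3893 bp at chr14:19415700-19419592 with no gene. The Klf4 region resembled the 2 domains in H3K27ac, with a peak in 8 of 8 libraries. The gene-free region was under peaks for 97.3% to 99.7% of its width in each list with a MACS header other than the NICD H3K4me3 list, and for 0% in both 2-allele lists. In all, 92 regions were at least 3000 but under 4000 bp wide and 11391 were 1000 bp or wider.

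**Figure D2:**
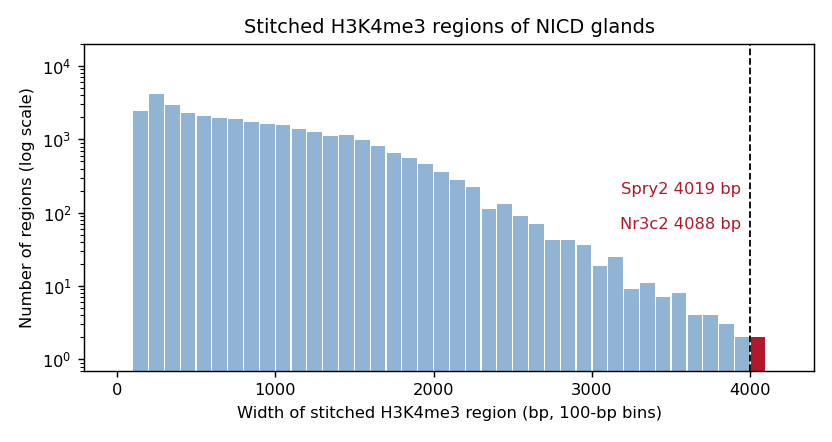
Number of stitched NICD H3K4me3 regions (log scale) by width in bins of 100 bp; the dashed line is the threshold of 4000 bp and the red bar holds the Nr3c2 (4088 bp) and Spry2 (4019 bp) domains. The counts are lower towards wider regions, and no gap separates the 2 domains from the regions below the threshold.

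Neither domain was among the strongest H3K4me3 sites of the library. The authors' scores give each peak a summit pileup, the number of fragments over its highest base, and a fold over the local background of the same library. At Nr3c2 the pileups were 98, 87 and 96 fragments from the most upstream peak to the downstream one, with folds of 3.33, 2.95 and 3.25. At Spry2 they were 68, 85 and 110 fragments in the same order, with folds of 2.11, 2.45 and 3.11. The highest pileup of the Spry2 domain exceeded that of 57.6% of the 11391 regions of 1000 bp or more, and that of the Nr3c2 domain 44.5%. Against all peaks of the list, narrow ones included, the 6 pileups exceeded those of 69.5% to 85.7%. The folds were low for their list, above those of 0.353% to 5.98% of its peaks. The local background they imply, 28.7 to 28.9 fragments at Nr3c2 and 31.7 to 34.7 at Spry2, was above that of 99.2% to 99.7% of the peaks in the list. That is 35.4 to 42.8 times the level expected if the library's reads were spread evenly. Against the same list, the peaks thus ranked higher by local background than by height. The lists were called without a control, so a wide domain's own reads enter its local background. The rank by background is therefore not independent of the width rule, and the size of that part was not tested.

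**Figure D3:**
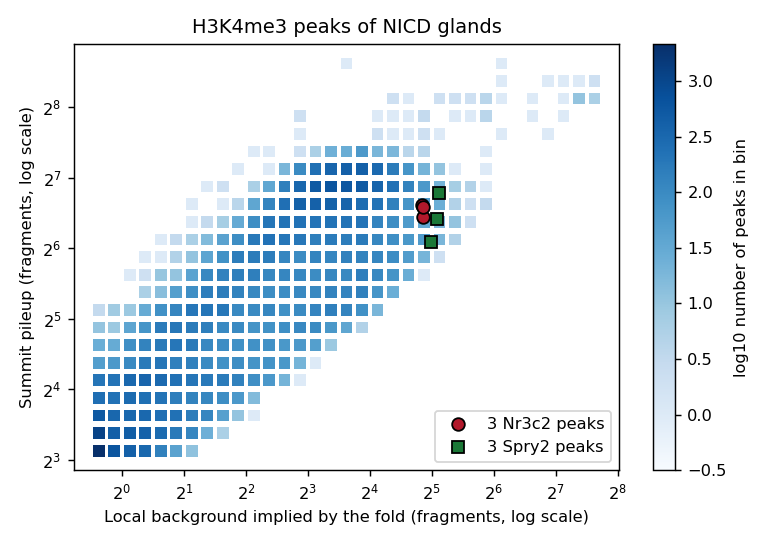
Summit pileup against the local background implied by the fold, both in fragments on log axes, for the NICD H3K4me3 peaks (blue bins, darker for more peaks), with the 3 Nr3c2 peaks as circles and the 3 Spry2 peaks as squares. The 6 peaks lie at pileups of 68 to 110 and at backgrounds of 28.7 to 34.7, to the right of nearly all other peaks of that height.

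In the other H3K4me3 libraries the domains were short or absent. The Nr3c2 domain was covered for 0% in Arid1a-floxed, 79.1% in NICD and 24.4% in wild-type glands. The wild-type peaks there, 4 in number, had pileups of 19 to 26 fragments and were 142 to 352 bp wide, and all lay upstream of the start. The Spry2 domain was covered for 0% in Arid1a-floxed, 79.3% in NICD and 7.71% in wild-type glands, where the only peak was 310 bp wide and lay 317 to 626 bp downstream of the start. So both domains were called in 0 of 1 floxed and 1 of 1 wild-type list, as were 48% of all regions of 1000 bp or more. The median share of the 2 domains was 0% in the floxed and 16.1% in the wild-type list, against 0% in the floxed and 16.3% in the wild-type list for the 92 regions of at least 3000 but under 4000 bp. Among all regions of 1000 bp or more 34.1% had a peak in the floxed and 81.9% in the wild-type list. With 1 library in each group there is no replicate check, and the lists differed greatly in length, with 5176 peaks in the floxed, 39423 in the NICD and 17563 in the wild-type list.

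Joining peaks in the same way in the other lists gave no region of 4000 bp or more in the floxed H3K4me3 list and 1 in the wild-type list. That region, of 5752 bp, lay on chromosome 17 over Rn18s-rs5, a copy related to ribosomal RNA. No joined H3K27ac region of any library reached 4000 bp, and the widest H3K27ac stretch touching the domains was 1255 bp at Nr3c2 and 1972 bp at Spry2, both in NICD library 1.

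The depth and list length behind these values varied. Reads kept after duplicate removal were 9.76 M to 16.62 M in the 1-allele, 7.96 M to 13.91 M in the NICD and 17.02 M to 18.26 M in the wild-type H3K27ac libraries, and 13.64 M, 11.75 M and 20.81 M in the floxed, NICD and wild-type H3K4me3 libraries. For the 2-allele libraries the depth is unknown. Of 12 stomach gland markers with an annotated start, 1 had a peak in the floxed, 9 in the NICD and 5 in the wild-type H3K4me3 list. In the H3K27ac lists 6 and 4 had one in the 2-allele, 2 and 1 in the 1-allele, 8 and 6 in the NICD, and 8 and 7 in the wild-type libraries. The share of all genes was measured for the NICD H3K4me3 list alone, so the part of list length in these counts was not tested. Markers of other cell types had peaks mainly in the NICD H3K4me3 list. There 8 of 20 blood genes (40%), 11 of 18 fibroblast and muscle genes (61.1%) and 7 of 12 endothelial genes (58.3%) had one. These shares lay below that of all 17273 protein-coding genes with an annotated start, of which 66.4% lay at an NICD region. The counts were 0, 0 and 0 in the floxed and 0, 1 and 1 in the wild-type list. In the H3K27ac lists these counts were at most 2. Their part in the width of the 2 domains was not tested, and in these bulk samples fewer cells of a type and less mark per cell cannot be told apart.

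H3K27ac covered part of the Nr3c2 domain in 7 of 8 libraries. The covered share of its width was 22.0% and 16.7% in the 2-allele, 0% and 9.64% in the 1-allele, 49.4% and 17.7% in the NICD, and 20.2% and 7.41% in the wild-type libraries. NICD library 1 stood above all others, while NICD library 2 lay within the range of the 2-allele and wild-type libraries. The means were 19.3% ± 3.70 in 2-allele, 4.82% ± 6.82 in 1-allele, 33.6% ± 22.4 in NICD and 13.8% ± 9.05 in wild-type glands (SD, n = 2 each).

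The Nr3c2 acetylation gathered at a few places. A stretch of 303 bp, 687 to 385 bp upstream of the start, lay under a peak in each of the 7 libraries with a call, and it sat inside the middle H3K4me3 peak. In 1-allele library 2 and wild-type library 2 it was the only acetylated place. Further upstream, between 3073 and 1426 bp from the start, peaks were called in both 2-allele libraries, in neither 1-allele library, in both NICD libraries and in wild-type library 1. NICD library 1 alone had a peak downstream of the start, 27 to 301 bp from it. In no H3K27ac library was the Nr3c2 start itself under a peak, and 44.7% of the domain was under none in any library.

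H3K27ac covered part of the Spry2 domain in all 8 libraries. The covered share was 26.4% and 23.9% in the 2-allele, 9.31% and 12.1% in the 1-allele, 46.8% and 31.6% in the NICD, and 24.6% and 24.0% in the wild-type libraries. Both 1-allele values lay below all others and both NICD values above all others, so neither group overlapped any other at Spry2. Of all regions of 1000 bp or more, 41.5% had both 1-allele values below those of the other libraries, 35.6% had both NICD values above them, and 15.4% had both patterns. The means were 25.2% ± 1.74 in 2-allele, 10.7% ± 2.01 in 1-allele, 39.2% ± 10.8 in NICD and 24.3% ± 0.387 in wild-type glands (SD, n = 2 each).

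At Spry2, too, a single place was shared. A stretch of 354 bp, 1095 to 742 bp upstream of the start, was under a peak in 8 of 8 libraries and overlapped the middle H3K4me3 peak, and in both 1-allele libraries that peak was the only one. A more upstream peak, beginning between 2596 and 2073 bp before the start, was called in both 2-allele, neither 1-allele, 1 of 2 NICD and both wild-type libraries. The start of Spry2 was under an H3K27ac peak in both NICD libraries and in no 2-allele, 1-allele or wild-type library. The wild-type libraries had peaks that ended 59 and 31 bp upstream of it. The share of all gene starts with this pattern was not measured. The NICD lists were also the longest H3K27ac lists, with 41411 and 25443 peaks. Downstream of the start, within 258 to 725 bp of it or in a peak reaching there, H3K27ac was called in both 2-allele, neither 1-allele, both NICD and 1 of 2 wild-type libraries. No H3K27ac peak covered 50.4% of the domain.

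Of all regions of 1000 bp or more, 75.2% and 72.5% had a peak in the 2-allele, 30.7% and 46.1% in the 1-allele, 91.3% and 84.1% in the NICD, and 76.1% and 72.8% in the wild-type libraries. A peak in all 8 libraries, as at Spry2, was found in 25.2% of them, and one in at least 7 libraries, as at both domains, in 46.8%. Calls in this many libraries were thus common among regions of that size.

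**Figure D4:**
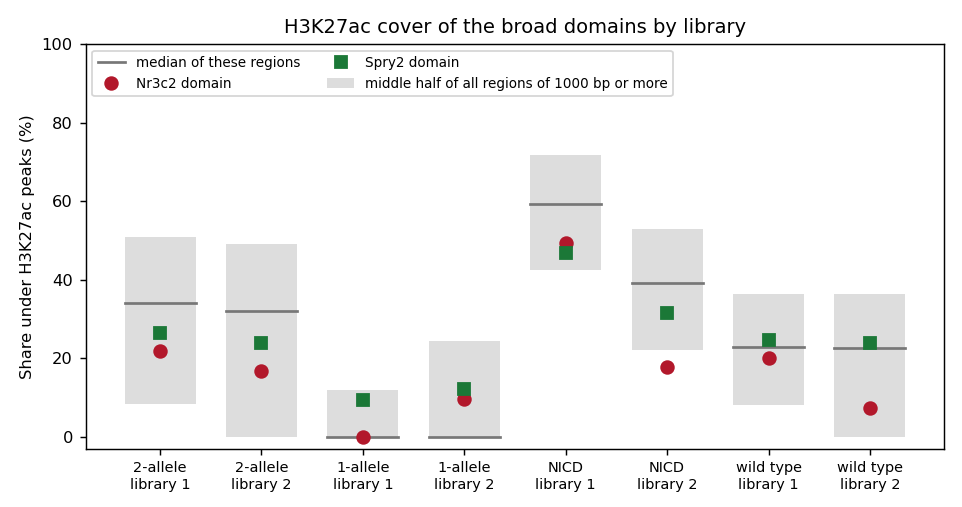
Share of each domain under H3K27ac peaks, in percent of its width, in the 8 H3K27ac libraries, with circles for Nr3c2 and squares for Spry2; grey boxes span the lower to the upper quartile of the 11391 regions of 1000 bp or more and the line is their median. Both domains are highest in NICD library 1, at 49.4% and 46.8%, and lowest in a 1-allele library, at 0% and 9.31%.

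Differences between groups were tested with limma on the covered percent of the 10003 regions covered in at least 2 libraries, with Benjamini-Hochberg adjustment over all of them. NICD libraries serve in 3 of the 4 comparisons, so these are not independent.

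In 1-allele against NICD glands both domains were lower, and so were most regions. Spry2 averaged 10.7% in 1-allele and 39.2% in NICD glands, a difference of −28.5 points (SE 8.46, 95% interval −47.7 to −9.29, limma adjusted p = 0.0148). Nr3c2 averaged 4.82% in 1-allele and 33.6% in NICD glands, a difference of −28.8 points (SE 11.4, 95% interval −54.6 to −2.87, limma adjusted p = 0.041). Of all regions tested 83.8% were lower and 0.02% higher by the same call, with a median difference of −40.0 points, so 2 of 2 domains is near the background. The Spry2 call was lost without 1-allele replicate 1 (limma adjusted p = 0.0728), when 43.1% of all regions were called lower. The Nr3c2 call was lost with 1-allele replicate 1, 1-allele replicate 2 or NICD replicate 1 left out (limma adjusted p = 0.177, 0.0655 and 0.209) and when any 1 of the 2-allele or wild-type libraries was (0.0601 and 0.0624), as well as with no filter on coverage (0.0852).

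In NICD against wild-type glands neither domain passed the test. Nr3c2 averaged 33.6% in NICD and 13.8% in wild-type glands, a difference of 19.8 points (SE 11.4, 95% interval −6.12 to 45.6, limma adjusted p = 0.18). Spry2 averaged 39.2% in NICD and 24.3% in wild-type glands, a difference of 14.9 points (SE 8.46, 95% interval −4.27 to 34.1, limma adjusted p = 0.174). The unadjusted limma p-values, from a model across all regions, were 0.118 and 0.112. Of all regions 23.2% were called higher and 0.02% lower in NICD, with a median difference of 23.6 points. Without NICD replicate 2, which had a redundant read rate of 0.52, both domains passed, at 35.6 points for Nr3c2 (limma adjusted p = 0.0285) and 22.5 points for Spry2 (0.0103), and so did 50.4% of all regions, called higher in NICD.

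In 2-allele against NICD glands neither domain passed the test. Nr3c2 averaged 19.3% in 2-allele and 33.6% in NICD glands, a difference of −14.2 points (SE 11.4, 95% interval −40.1 to 11.7, limma adjusted p = 0.493). Spry2 averaged 25.2% in 2-allele and 39.2% in NICD glands, a difference of −14.0 points (SE 8.46, 95% interval −33.2 to 5.15, limma adjusted p = 0.355). Unadjusted limma p-values were 0.245 and 0.132, and 4.02% of all regions were called lower and 0% higher in 2-allele glands. Without NICD replicate 2 the Spry2 difference of −21.7 points passed (limma adjusted p = 0.0161), as did 24.8% of all regions in that direction, and without NICD replicate 1 the Nr3c2 difference changed sign, to 1.64 points.

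In 2-allele against 1-allele glands both domains had higher means in 2-allele glands, and neither difference passed. Nr3c2 averaged 19.3% in 2-allele and 4.82% in 1-allele glands, 14.5 points apart (SE 11.4, 95% interval −11.4 to 40.4, limma adjusted p = 0.32). Spry2 averaged 25.2% in 2-allele and 10.7% in 1-allele glands, 14.4 points apart (SE 8.46, 95% interval −4.74 to 33.6, limma adjusted p = 0.19). Unadjusted limma p-values were 0.235 and 0.122, and 36.6% of all regions were called higher and 0.11% lower in 2-allele glands. The Spry2 difference passed with either NICD library left out (limma adjusted p = 0.0202), when 40.4% of all regions were called higher. The 2-allele lists hold positions alone and may have been called in another way, which cannot be told apart from the genotype.

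The differences also depended on the length of the lists. With every H3K27ac list shortened to 5148 peaks, no domain passed in any comparison by limma, and the differences were 4.65 points at Spry2 and 4.82 at Nr3c2 in 1-allele minus NICD and −10.8 and −3.71 points in NICD minus wild type, opposite in sign to those of the full lists.

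By presence of a peak alone, neither domain separated 2 groups. No domain was called in both libraries of one group and in neither of the other in any of the 4 comparisons. Over all regions, the share with a peak in both NICD libraries was 6.48% where wild type had none, 32.9% where 1-allele had none and 6.97% where 2-allele had none. The share with a peak in both 2-allele libraries and none in 1-allele was 20.4%. The opposite patterns made up 0.0527% for wild type against NICD, 0% for 1-allele against NICD, 0.0351% for 2-allele against NICD and 0.158% for 1-allele against 2-allele.

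**Figure D5:**
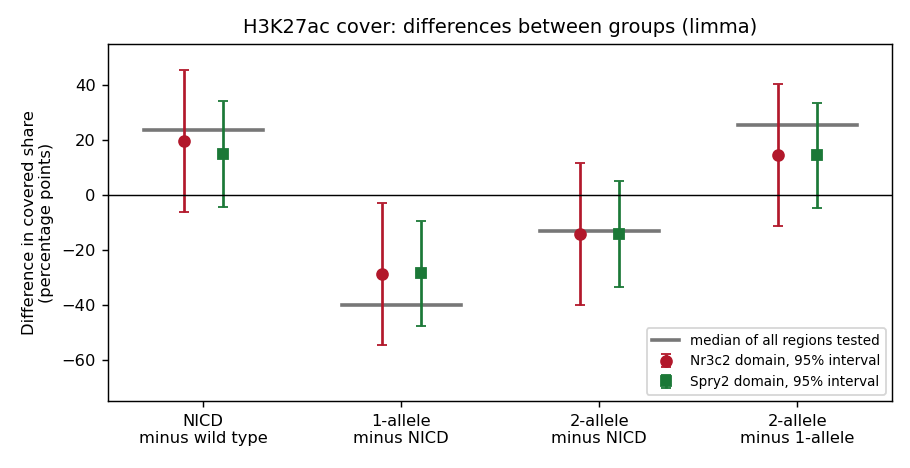
Difference in the share under H3K27ac peaks, in percentage points with 95% limma intervals, for Nr3c2 (circles) and Spry2 (squares) in the 4 comparisons; the grey line is the median over the 10003 regions tested. The intervals exclude 0 for both domains in 1-allele minus NICD alone, and the grey line lies inside every interval.

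Few other peaks lay within 50 kb of the 2 domains, and such counts around other wide regions were not measured. Within 50 kb on either side of the Nr3c2 domain the floxed, NICD and wild-type H3K4me3 lists held no other peak, and the H3K27ac lists held 1, in NICD library 2. Further inside the long body of Nr3c2 the NICD H3K4me3 list had 8 more peaks and the floxed and wild-type lists 0. H3K27ac peaks in that body numbered 1 and 0 in the 2-allele, 0 and 0 in the 1-allele, 7 and 3 in the NICD, and 0 and 1 in the wild-type libraries. Around Spry2 the NICD H3K4me3 list held 2 other peaks within 50 kb, 1 on each side, and the floxed and wild-type lists held none. H3K27ac peaks there numbered 0 and 1 in the 2-allele, 0 and 0 in the 1-allele, 4 and 0 in the NICD, and 0 and 0 in the wild-type libraries.

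Genes related to the 2 domain genes, or acting with them, were looked up as well. Since no other region reached 4000 bp, the rule fixed that theirs were narrower. In a list of 22 such genes, drawn up after the domains were known, 14 had an annotated start, and their widest NICD regions ran from 881 to 3037 bp with a median of 1951 bp, against a median of 1325.5 bp over all protein-coding genes with a start and a region. Among inhibitors of ERK signalling these were 1945 bp at Spry1, another Sprouty gene, 2896 bp at Spred1, 2167 bp at Spred2 and 2145 bp at Spred3. Among the phosphatases of ERK, Dusp7 had 3037 bp, Dusp5 1957 bp and Dusp6 1462 bp, and Etv5, an Ets factor induced by ERK, had 2318 bp. Of genes that steroid receptors act on or through, Tsc22d3, a glucocorticoid-induced regulator, had 2488 bp, Sgk1, a kinase in sodium transport, 1347 bp, and Fkbp5, a co-chaperone of the receptors, 1230 bp. The other steroid receptors measured had 1884 bp at Pgr, 1063 bp at Esr1 and 881 bp at Esr2.

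These relatives followed the H3K27ac differences of regions at large. Of the 12 tested, 9 fell in 1-allele against NICD glands (83.8% of all regions), with a median difference of −35.5 points, and 1, Etv5, was higher in NICD than in wild-type glands (23.2% of all regions). None passed in 2-allele against NICD glands (4.02%), and 3, namely Spry1, Dusp5 and Dusp6, were higher in 2-allele than in 1-allele glands (36.6%).

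None of the 17 gene lists used to describe the wide regions held Nr3c2 or Spry2, and 0 of their members lay at a region of 4000 bp or more. At 3000 bp or more they included Maml3 and Jag1 of the Notch pathway, Klf4, Elf3, Gata5 and Sox21 among gastric and endoderm factors, Foxo1, Foxo3 and Kmt2d among tumour suppressors, Cdk6 among oncogenes, and Smarca2 and Arid1b of SWI/SNF. Of the 17273 protein-coding genes with an annotated start, 75 (0.434%) had a region that wide. Among genes with a start, the Notch list held 2 of 26, the gastric and endoderm list 4 of 24 and the tumour suppressor list 3 of 23. The SWI/SNF list held 2 of 22, the oncogene list 1 of 24, and the AP-1 and immediate early list 1 of 22, again Klf4. These shares were above that of all genes, and the difference was not tested. At a share of 0.434% few or no members would be found in lists of this size. The parietal, surface pit, chief and mucous neck, Wnt and stem cell, Hox, other-lineage, ribosomal protein, cell cycle, blood, fibroblast and muscle, and endothelial lists held none. Only members with a start in the table could be counted. The widest regions of the blood, fibroblast and muscle, and endothelial lists were 1462 bp at Kit, 1413 bp at Vim and 1427 bp at Flt1.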

How the data were processed

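All 11 libraries were analysed as the authors' peak lists, 8 for H3K27ac and 3 for H3K4me3. Bowtie2 and GRCm38 (mm10) were the aligner and build per the submitters' processing notes. Per the file headers, 9 lists were called with MACS 2.0.10.20131216 on each library alone, without a control, at a q-value threshold of 0.05. The deposited lists give a summit pileup signal, −log10 p-values and −log10 q-values, and a fold over the local background. The authors' 2-allele lists hold positions only, without a header. For H3K4me3, no antibody is named in the protocols.

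Peaks were joined at 500 bp, and domains of 4000 bp or more were kept. Genes were those of RefSeq (GRCm38.p6) with a start within 1 kb. The local background was computed from the fold, taken as the ratio of pileup to background after 1 was added to both. The covered percent of each region of 1000 bp or more was tested with limma 3.58.1 in R 4.3.3 by group, with Benjamini-Hochberg adjustment and a threshold of 0.05, after a check on simulated data. A call was 1 bp or more under a peak. Pellets were pooled, so p-values measure only the spread between libraries, which may be technical. Peak lists give no counts below the threshold, so a region without a peak is not a region without the mark. The genes named were those of the domains, the 3 widest regions below the threshold, members of the lists at 3000 bp or more, and the relatives. The domains and lists were chosen with earlier results of these data known, and the relatives after the domains were known. Alternatives were other joining distances and widths, a −log10 q of 5 or more, the central 2000 bp, 25% covered as a call, lists shortened to one length, log2(covered bp + 100), no filter, a replicate block and each library left out.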

Additional observations from a re-analysis of the deposited data

How the results depend on the processing

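The number of domains depended on the rule: 0 with touching peaks only, 10 with peaks joined at 1000 bp, 94 at a threshold of 3000 bp and 0 at 5000 bp, against 2 as reported and with a −log10 q of 5 or more. The settings with 0 domains gave no further value. The mean share of the domains under H3K27ac peaks was 22.3% in 2-allele, 7.77% in 1-allele, 36.4% in NICD and 19.05% in wild-type glands. Over the central 2000 bp it was 30.9% in 2-allele, 12.7% in 1-allele, 49.2% in NICD and 26.4% in wild-type glands. With joining at 1000 bp it was 13.1%, 23.6%, 37.1% and 32.6% in the same order, over all 10 regions of that setting. Of the 10, 1 lay over Rn18s-rs5. Joined at 500 bp, that site was under H3K27ac peaks for 89.1% and 73.4% in the 1-allele, 74.9% and 84.3% in the wild-type and 0% in both 2-allele libraries. Each H3K27ac list was also shortened to 5148 peaks, by p-value or, in the 2-allele lists, by file order. The mean share of the 2 domains was then 2.99% in 2-allele, 4.74% in 1-allele, 0% in NICD and 7.27% in wild-type glands. None of the 6 H3K4me3 peaks of the domains was among the 5157 strongest of the NICD list.

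In that shortened setting these differences turned, and no domain passed: −10.8 points at Spry2 and −3.71 at Nr3c2 in NICD minus wild type, and 4.65 and 4.82 in 1-allele minus NICD. Spry2 turned to 5.98 in 2-allele minus NICD, and Nr3c2 to −4.82 in 2-allele minus 1-allele. Both values with 2-allele glands rest on file order, which need not follow peak strength. With 1 library left out, the Nr3c2 difference in 2-allele minus NICD ranged from −30.1 to 1.64 points, positive without NICD replicate 1. The cause was not tested. Of 2 domains called in 1-allele minus NICD, 1 stayed called with no filter, when 60% of all regions tested were called lower. Without the 2-allele group 1 stayed called (79.4% of all regions tested), and with shortened lists 0 (6.37%). With log2(covered bp + 100), 1 domain passed in 2-allele minus 1-allele, when 37.7% of all regions tested were called higher. With 1 library left out, the domains called ranged from 0 to 2 in NICD minus wild type and in 1-allele minus NICD, and from 0 to 1 in both other comparisons. A lone library was assumed to vary like the other groups.

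With 25% covered as the call, 1 domain was called in both NICD libraries and none of wild type, and 1 in both NICD libraries and none of 1-allele. With shortened lists 1 had peaks in wild type (2 of 2) and not in NICD (0 of 2). With 1 library left out these counts ranged from 0 to 1, for NICD and not 1-allele and for 2-allele and not 1-allele. The shares of all regions with these patterns were not measured under the changed rules, so these counts have no background. In wild-type H3K4me3, the covered share was 0% at both domains with shortened lists, 31.1% at Nr3c2 and 15.5% at Spry2 in the central 2000 bp, and 34.96% at Nr3c2 with joined peaks.

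With a replicate block, the limma adjusted p in 1-allele minus NICD was 0.0237 at Spry2 and 0.041 at Nr3c2, with 2 domains called, and no call on a domain changed. Same-numbered libraries deviated together only with correlations of −0.0178 to 0.12. With 2 libraries a group, such values cannot tell whether same-numbered libraries share animals or a batch. Over all regions, calls ranged from 0 to 5042 higher in NICD minus wild type (2325 as reported), 363 to 8383 lower in 1-allele minus NICD (8380), 0 to 2480 lower in 2-allele minus NICD (402) and 0 to 4038 higher in 2-allele minus 1-allele (3665). The lists without scores, the pooled pellets, the single H3K4me3 libraries and the depth set by the peak threshold limit all of these values.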

Other observations

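With peaks joined at 1000 bp, the widest NICD H3K4me3 region spanned 6072 bp over Brd2, which encodes a reader of acetylated histones, and H2-DMa, an antigen presentation gene. A region of 4794 bp over Nr4a3, an orphan nuclear receptor gene, also passed 4000 bp in that setting, beside the Nr3c2 and Spry2 domains, whose widths were the same as with 500 bp. Of the 10 regions, 6 had no gene start of the table within 1 kb. The table lacks some genes: of 32 listed Notch pathway genes, 26 had a start in it. A region without such a start may therefore still lie at a gene. Among the 6, 1 lay over Rn18s-rs5. With joining at 500 bp that site was 3751 bp wide in the NICD list and 5752 bp in the wild-type list.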
